A study of Mus musculus with 3 samples.

Results

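The genes described here encode the subunits of RNA polymerase II (Pol II), Mediator, TFIID and Integrator. They were chosen by symbol (Polr2a to Polr2m, and Med, Taf or Ints followed by a number) among genes with at least 1 transcript annotated as protein coding, with no use of their measured values. This gave 81 of 21901 such genes: 12 Pol II subunits, the Pol II-associated Polr2m, 30 Mediator genes, 16 TFIID genes, 7 genes that carry a Taf name but encode parts of other complexes, and 15 Integrator genes. The cells were primary macrophages derived from bone marrow, of the mouse strain C57BL/6J, and RNA was taken from their chromatin fraction. They had been stimulated for 15 min with lipid A at 100 ng/ml. Lipid A is the membrane anchor of bacterial lipopolysaccharide and the ligand of the receptor TLR4. All 3 libraries belong to this 1 group, and no unstimulated or other control library was used here, so no value below measures a response to lipid A. The 3 replicates share 1 donor label but have separate biosample labels, and the labels record sex and age as not collected. Their starting RNA was 1 µg, 250 ng and 500 ng for replicates 1, 2 and 3, so anything that depends on input, and anything else particular to a library, cannot be told apart. Ribosomal RNA was depleted before sequencing.

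Pol II makes the messenger RNA of a cell. TFIID, built from the TATA-binding protein and the TAF proteins, recognises the core promoter, and Mediator carries signals from activators bound at enhancers and promoters to the polymerase. Integrator associates with Pol II soon after transcription starts, where it cleaves nascent RNA, matures the small nuclear RNAs and ends transcription early at many genes. In macrophages these machines serve the inflammatory genes that are switched on within minutes of TLR4 engagement. RNA held at chromatin is largely nascent or not yet released, so a level here concerns RNA from the subunit genes at the DNA, not the amount of the subunit proteins.

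Depth ran from 10974934 to 21376404 expected counts per library, which are estimated counts that need not be whole, and the 81 genes held 0.331% to 0.359% of them. Levels are given in TPM, which corrects for transcript length and depth within a library. Protein-coding genes took 23.9%, 16.6% and 25.3% of TPM in replicates 1, 2 and 3, the least in replicate 2, and this share enters the TPM of each gene. A count of 3 was set as the floor, worth 0.221, 0.0947 and 0.191 TPM for a transcript of 1 kb in replicates 1, 2 and 3, and it covers counting error only. All 6 macrophage markers examined (Csf1r, Adgre1, Cd68, Itgam, Spi1 and Lyz2) were at 1 TPM or more in every library and summed to 331 to 630 TPM. None of the 3 markers each of T cells, B cells, neutrophils and stromal cells reached 1 TPM in all libraries. The highest sums of these lists in any library were 0.130, 0.130, 1.17 and 0.840 TPM, and Cd3e and Cd3g had no count. These values are from the gene table. In the second quantification, described below, Cd8a, Cd3g and Col1a1 had means of 3.88, 1.28 and 1.51 TPM. The other markers of these 4 cell types were below 1 TPM in mean there. In bulk RNA, fewer cells of a type and less RNA per cell cannot be told apart.

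Most of the subunit genes were present in chromatin RNA at moderate levels. At 1 TPM or more in all 3 libraries were 69 of the 81 genes (85.2%), against 42.6% of all protein-coding genes. By complex these were 9 of 12 Pol II subunits with Polr2m besides, 25 of 30 Mediator genes, 13 of 16 TFIID genes, 7 of 7 other TAF genes and 14 of 15 Integrator genes. Above 3 counts in every library were 80 of the 81 genes, and the remaining one, Taf7l, had no count in any. The median of the 81 genes was 6.78, 4.59 and 7.87 TPM in replicates 1, 2 and 3 (6.41 ± 1.67, SD, n = 3), beside 0.560 ± 0.164 TPM for all protein-coding genes. Among genes with a mean of at least 1 TPM, the median was 6.85 ± 1.50 TPM for 75 subunit genes and 8.74 ± 2.21 TPM for 10235 protein-coding genes. The subunit genes were thus detected more often than protein-coding genes at large, while their median was below that of other detected genes in each library. Both medians come from the same 3 libraries and rose and fell together, so their SDs do not measure the uncertainty of this gap.

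The complexes differed in level. Integrator had the highest median, 11.8, 10.5 and 14.6 TPM in replicates 1, 2 and 3 (12.3 ± 2.11, SD, n = 3). Pol II had the lowest, 2.42, 3.46 and 4.24 TPM (3.37 ± 0.913). Between them lay Mediator at 6.91 ± 1.84, the other TAF genes at 6.39 ± 1.65 and TFIID at 5.18 ± 1.50 TPM. Integrator was highest and Pol II lowest in each of the 3 libraries, and the ranges of these 2 medians did not overlap, but in replicate 2 Pol II (3.46) and TFIID (3.48) were nearly equal. The spread within a complex was much wider than that between complexes, from 36.5-fold between the highest and the lowest mean in Pol II to 334-fold in Mediator. The complexes also differ in gene span, which went with level, as described below. Every Integrator gene but Ints5 spans at least 19149 bp, and every Pol II subunit gene but Polr2a and Polr2b at most 16086 bp. The part of span in the order of the complexes was not tested.

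**Figure D1:**
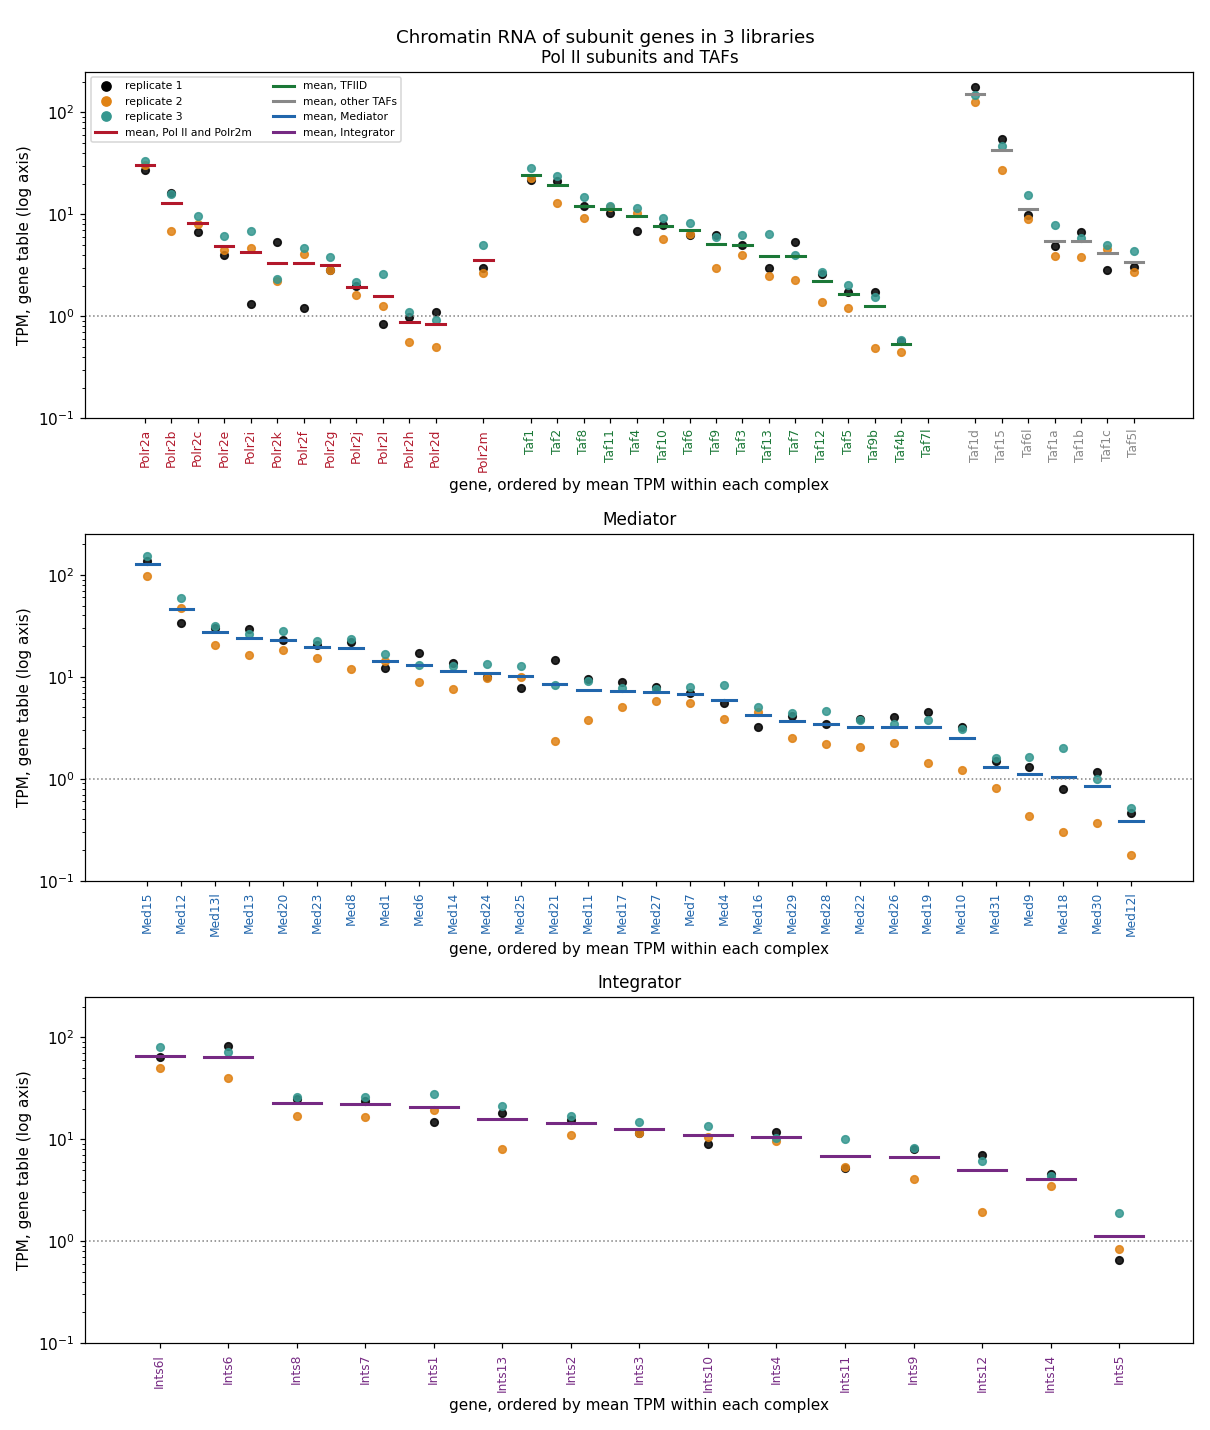
TPM of each subunit gene in the gene table (log axis), with 1 point per library and a bar at the mean of 3 libraries, ordered by mean within each complex. Taf1d (151 TPM) and Med15 (129 TPM) stand highest, Integrator genes lie mostly above the dotted line at 1 TPM, and Taf7l, at 0 in all libraries, has no point.

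Much of this RNA was assigned to isoforms that encode no full protein. The annotation sorts each transcript into a class. A retained-intron isoform keeps sequence that other isoforms of the gene splice out, a nonsense-mediated decay isoform has an early stop codon, and a processed transcript has no long open reading frame. Over the summed TPM of the subunit genes, protein-coding isoforms took 40.0 ± 2.32%, retained-intron isoforms 38.0 ± 2.95%, processed transcripts 19.4 ± 1.20% and nonsense-mediated decay isoforms 2.67 ± 0.325% (SD, n = 3). This sum is weighted to the highest genes, among them Taf1d and Med15. Per gene, the median protein-coding share of TPM was 53.5 ± 3.10% over the 75 genes with a mean of at least 1 TPM. It was 54.9 ± 2.48% over 10235 protein-coding genes at the same minimum. By expected counts the 2 medians were 77.9 ± 2.94% and 77.9 ± 2.08%. The isoform with the highest mean TPM was protein coding in 43 of 75 genes, retained intron in 27 and processed transcript in 5. Over 10235 protein-coding genes with a mean of at least 1 TPM, these classes led in 61.5%, 30.0% and 6.36%. Retained-intron isoforms are annotated in 49 of these 75 genes, and there their median share of the gene's TPM was 48.1%, 45.1% and 51.5% (48.3 ± 3.19%). The same median over 6507 protein-coding genes was 47.6 ± 3.20%. At 50% or more in all 3 libraries were 15 of the 49 genes, near the background of 34.5% of protein-coding genes. The median share in the subunit genes thus differed from that of other genes by less than the spread between libraries. Whether intron reads came from such isoforms or from RNA not yet spliced was not tested.

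**Figure D2:**
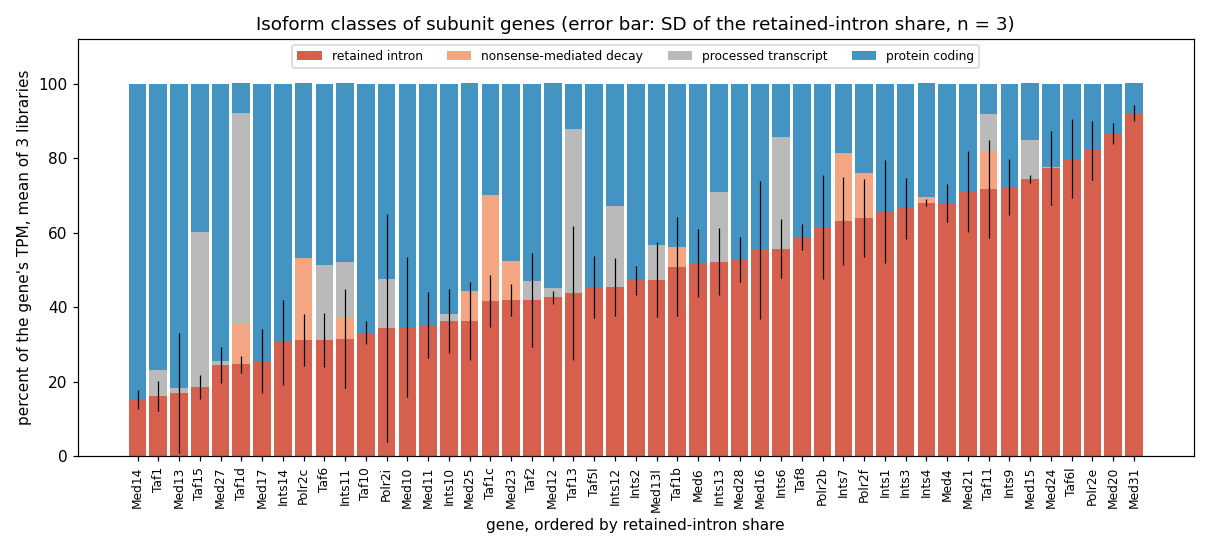
Share of each gene's TPM by annotated isoform class, mean of 3 libraries, for 49 subunit genes with a mean of at least 1 TPM and an annotated retained-intron isoform; black lines give the SD of the retained-intron share over 3 libraries. The retained-intron share runs from 15.2% in Med14 to 92.2% in Med31, and processed transcripts fill much of Taf1d and Taf15.

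The share depends on the scale, because TPM weights a short isoform more than a long one. As a share of expected counts, the median over the 49 genes was 31.2 ± 2.10%. In 14 of the 49 genes the leading retained-intron transcript holds at least 1 whole intron of a protein-coding transcript inside an exon, 23 introns in all, 22 of them between coding exons. Their median length was 144 nt (69 to 3822 nt), with a median GC content of 51.7%, and all 23 begin with GT and end with AG. Intron ends of 3 genes among the 5 with the highest retained-intron share are printed below, each from the gene's leading isoform. In Polr2e, Med20 and Taf6l that isoform held 27.2%, 37.1% and 22.6% of the gene's TPM in mean. The rest of each gene's retained-intron share lies on its other such isoforms.

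Among the Pol II subunits, Polr2a stood apart. It encodes the largest, catalytic subunit, whose repeated C-terminal tail is phosphorylated through the transcription cycle, and lies at chr11:69733997-69758637 (mm10). Its level was 27.1, 30.4 and 33.7 TPM in replicates 1, 2 and 3 (30.4 ± 3.32, SD, n = 3). Polr2b, the second-largest subunit, which closes the active site with Polr2a, came next at 16.2, 6.84 and 15.9 TPM, and Polr2c, part of the assembly platform, at 6.78, 8.09 and 9.70 TPM. Each library put Polr2a above Polr2b, with no overlap between their values. The lowest subunits were Polr2h, shared by all nuclear RNA polymerases, at 0.98, 0.56 and 1.09 TPM, and Polr2d, part of the stalk with Polr2g, at 1.09, 0.50 and 0.91 TPM. These 2 rested on 7 to 12 counts per library, so their order is not resolved. Polr2l, another shared subunit, was at 0.84, 1.26 and 2.62 TPM. Polr2m, whose protein restrains Pol II initiation, was at 3.01, 2.67 and 4.99 TPM. Polr2a has no isoform annotated as retained intron, and its leading isoform was protein coding at 13.7 ± 3.90 TPM.

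Polr2e, which encodes a subunit shared by all nuclear RNA polymerases, had a retained-intron share exceeded by those of Med31 and Med20 alone among the 49 genes. The share was 91.2%, 77.5% and 77.7% of its TPM in replicates 1, 2 and 3 (82.1 ± 7.88%), and its total level was 3.98, 4.44 and 6.09 TPM. Its leading isoform keeps whole introns, among them those at chr10:80037385-80038438 (1054 nt) and chr10:80036974-80037187 (214 nt), on the minus strand of mm10. The ends of these 2 introns are given 5′ to 3′ from the GENCODE M21 transcript sequences. Each 5′ end shows 5 exon bases and 25 intron bases, each 3′ end 25 intron bases and 5 exon bases, and capitals mark the first and last pair of intron bases.
Polr2e 1054 nt intron, 5′ end: cccagGTgaggcccttgggctggcaggagt
Polr2e 1054 nt intron, 3′ end: gagggtggtgcttgtgtgcccgcAGaggag
Polr2e 214 nt intron, 5′ end: acgagGTgtgtgtggtggggtggggcgtag
Polr2e 214 nt intron, 3′ end: tgtgggtgggtctctgtctccacAGctagt

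Mediator covered the widest range. The tail subunit Med15, a direct target of several activators (chr16:17651208-17732891), was at 138, 98.2 and 152 TPM in replicates 1, 2 and 3 (129 ± 27.8). Next came Med12, which activates the kinase of the Cdk8 module, at 33.6, 46.8 and 59.1 TPM. Med13l, one of the proteins that link the kinase module to core Mediator, followed at 30.0, 20.7 and 31.7 TPM. Med15 was above every other Mediator gene in all 3 libraries, while the ranges of Med12 and Med13l were separate by less than 2 TPM. By module, the medians were 25.8 ± 6.24 TPM for the 4 kinase-module genes, 12.2 ± 2.22 for 5 tail genes, 7.88 ± 2.43 for 7 head genes, 4.24 ± 2.07 for 8 middle genes and 3.66 ± 1.15 for the other 6. Med17, the head's scaffold, was at 7.24 ± 1.95 TPM, Med14, the backbone that joins the modules, at 11.3 ± 3.33, and Med1, the contact of nuclear receptors, at 14.4 ± 2.35.

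Within the kinase module the paralogs differed. Med12l was the lowest Mediator gene at 0.46, 0.18 and 0.52 TPM, and Med12 was 73.0, 260 and 114 times as high in replicates 1, 2 and 3 (149 ± 98.2). In the second quantification of these libraries, described below, the ratio was 74.3 ± 49.6. An antisense gene, P2ry12, overlaps exons of Med12l, so even its 44 to 70 counts per library may not all be its own. Med13 was at 29.7, 16.5 and 26.1 TPM, and its ratio to Med13l was 0.871 ± 0.103, below 1 in each library. Med30, a core subunit of animal Mediator, was at 1.16, 0.37 and 0.99 TPM on 9 or 10 counts. Under 1 TPM in at least 1 library were also Med18, a movable head subunit (0.80, 0.30 and 2.01 TPM), and the middle subunits Med9 (1.29, 0.43 and 1.64 TPM) and Med31 (1.50, 0.81 and 1.59 TPM). In all of these low Mediator genes replicate 2 was the lowest library.

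Several Mediator genes had high retained-intron shares. Med31 had the highest, 92.1%, 90.1% and 94.3% of its TPM (92.2 ± 2.11%), on 13 to 16 counts per library. Med20, a head subunit that pairs with Med18, followed at 86.7%, 83.7% and 89.3% (86.6 ± 2.83%), with a gene level of 22.8, 18.4 and 28.0 TPM. Med24, a tail subunit, was at 77.0%, 67.5% and 87.5%. Med15 was at 73.3%, 75.6% and 74.1%, so most of the TPM of the highest Mediator gene was assigned to retained-intron isoforms in each library. The leading isoform of Med20 spans 5680 nt, has a level of 8.70 ± 3.23 TPM and keeps 1 whole intron of 3822 nt at chr17:47619063-47622884, plus strand, the longest of the 23.
Med20 intron, 5′ end: tggagGTaagaccttggtgaaggacaagca
Med20 intron, 3′ end: ctggctatctgttctcttgtcccAGgtgga

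At the other end, Med14 had a retained-intron share of 15.9%, 17.4% and 12.3%, and Med27 one of 29.0%, 24.9% and 19.4%. Med13 varied between libraries, at 34.9%, 3.7% and 12.2% (16.9 ± 16.1%), while such isoforms held 0.626% of its counts. In the second quantification described below its share was 28.6 ± 9.63%. Med20 overlaps a gene on the same strand, Gm20517, in its exons, so reads in the shared part may be split between them.

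TFIID was led by its largest scaffold, Taf1, a bromodomain protein, at 21.6, 22.7 and 28.2 TPM (24.2 ± 3.56). Taf2, which contacts the initiator element, was at 21.3, 12.8 and 23.6 TPM, and Taf8, a histone-fold partner of Taf10, at 12.1, 9.19 and 14.9 TPM. The ranges of Taf1 and Taf2 overlapped. Taf3, whose PHD finger reads methylated histone H3 at promoters, was at 5.06 ± 1.13 TPM, and Taf5, a WD-repeat scaffold, at 1.73, 1.20 and 2.05 TPM. Taf12, a histone-fold subunit, was at 2.62, 1.39 and 2.71 TPM. Taf1 had one of the lowest retained-intron shares, 11.8%, 19.6% and 17.3%, and 6.52 ± 1.66% in the second quantification. By contrast, Taf11, a histone-fold subunit near the TATA-binding protein, reached 71.8 ± 13.1%. That last value was 31.1% in the second quantification, and the antisense gene Anks1, which overlaps Taf11 exons, was at 29.4 ± 5.13 TPM.

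The TFIID paralogs Taf9b, Taf4b and Taf7l were the lowest of the complex. Taf4b, known from ovary and testis, was at 0.57, 0.45 and 0.59 TPM, with Taf4 at 6.86, 10.2 and 11.6 TPM, a ratio of 18.1 ± 5.48 (27.2 ± 11.7 in the second quantification). Taf9b was at 1.72, 0.49 and 1.55 TPM, and Taf9 was 4.54 ± 1.37 times as high. Taf7l, known from testis and fat cells, was listed at 0 in all 3 libraries, with Taf7 at 5.34, 2.26 and 4.01 TPM. In each of these pairs, and for Med12 and Med12l, the member named first in its family was higher in every library. The pairs that TFIID and the SAGA coactivator split ran the other way: Taf5 was 0.492 ± 0.0630 times its SAGA counterpart Taf5l, and Taf6 0.628 ± 0.0908 times Taf6l, both below 1 in all 3 libraries. Taf5l was at 3.08, 2.73 and 4.33 TPM, and Taf6 at 6.25, 6.46 and 8.26 TPM.

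Taf6l, which takes the place of Taf6 in SAGA, was at 9.83, 9.04 and 15.5 TPM and had a retained-intron share next to that of Polr2e, 90.6%, 69.6% and 79.4%. Its leading isoform is a single exon of 2476 nt at 2.53 ± 1.13 TPM that keeps the intron at chr19:8775291-8775389, minus strand, of 99 nt.
Taf6l intron, 5′ end: ttctgGTgagttagcagtcccaccttctct
Taf6l intron, 3′ end: gttcctcttagctctctgtttacAGgtggc

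The other genes with a Taf name included the highest of all 81. Taf1d, a subunit of the Pol I promoter factor SL1 (chr9:15306214-15316991), was at 176, 127 and 149 TPM (151 ± 24.6). Its leading isoform was a processed transcript of 491 nt at 83.8 ± 5.89 TPM, 56.3 ± 7.24% of the gene. Taf1d hosts small nucleolar RNAs, which guide the modification of other RNAs and are cut out of introns. Exons of its non-coding or decay isoforms overlap 8 annotated small nucleolar RNA genes and 2 microRNA genes. The 491 nt isoform contains the whole of one of them, Gm23455, which is listed at 0 TPM. Another, Gm25791, was at 4486, 6178 and 5398 TPM, and lies in a decay isoform of Taf1d at 11.3 ± 3.41 TPM. Gm25791 is 137 nt long, and TPM weights so short a transcript strongly, so these 2 levels are not directly comparable. How reads were divided between host and small RNA was not tested.

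Taf15, an RNA-binding protein, was at 54.3, 27.2 and 47.2 TPM, with replicate 2 lowest. Processed transcripts held 45.7%, 32.4% and 46.8% of it, and retained-intron isoforms 21.6%, 19.1% and 15.1%. The other SL1 genes were far below Taf1d, with Taf1a at 5.54 ± 2.06, Taf1b at 5.48 ± 1.53 and Taf1c at 4.14 ± 1.16 TPM. Within SL1, Taf1d was thus 36.4 times Taf1c by their means.

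Integrator was led by a pair of paralogs. Ints6l (chrX:56454857-56507843) was at 64.5, 49.7 and 81.0 TPM (65.0 ± 15.7), and Ints6, which recruits the phosphatase PP2A (chr14:62676330-62761169), at 82.2, 39.7 and 72.0 TPM (64.6 ± 22.2). Their ratio was 1.27, 0.798 and 0.890 (0.987 ± 0.252), so neither was higher in all libraries. The leading isoform of Ints6 was a retained-intron transcript of 2402 nt at 21.8 ± 12 TPM, and that of Ints6l a protein-coding transcript of 2766 nt at 32.5 ± 6.94 TPM. Ints6l has no isoform annotated as retained intron, so no such isoform could lead there. Next was Ints8, which helps to bind PP2A, at 24.8, 16.9 and 25.7 TPM.

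The catalytic and structural Integrator genes were lower than Ints6 and Ints6l. Ints11, the endonuclease, was at 5.23, 5.28 and 10.1 TPM, its inactive partner Ints9 at 7.93, 4.10 and 8.18 TPM, and Ints4, which holds the pair, at 11.8, 9.63 and 10.3 TPM. Ints1, a large scaffold, was at 14.7, 19.4 and 27.7 TPM, a range that overlapped that of Ints8. The lowest were Ints14, in the module with Ints10 and Ints13, at 4.51, 3.45 and 4.33 TPM, and Ints5 at 0.65, 0.83 and 1.90 TPM, the sole Integrator gene under 1 TPM in a library. Over the 12 Integrator genes with a retained-intron isoform, the median share was 53.9 ± 8.41%, beside 59.8 ± 12.3% for 5 Pol II genes, 46.1 ± 4.41% for 19 Mediator genes, 43.5 ± 7.41% for 6 other TAF genes and 36.8 ± 5.21% for 7 TFIID genes. In the order of these medians, each differed from the next by less than the larger of their SDs. As shares of expected counts the order changed. The medians were then 45.9% for the other TAF genes, 39.8% for Integrator, 28.8% for Pol II, 27.9% for Mediator and 18.1% for TFIID.

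The other general and elongation factors that act with these complexes were a list of 41 genes. All 41 were at 1 TPM or more in all 3 libraries, against the background of 42.6% given above, with a median of 12.1 ± 2.58 TPM. The highest were Cdk9, the kinase of the elongation factor P-TEFb, at 64.7, 84.3 and 106 TPM, its cyclin Ccnt2 at 84.8, 45.4 and 87.6 TPM, and Aff4, the scaffold of the super elongation complex, at 64.9, 44.3 and 71.4 TPM. The lowest were Gtf2e1, a subunit of TFIIE, at 3.91, 1.35 and 2.86 TPM, and Supt4a, a subunit of the factor DSIF, at 1.04, 1.73 and 3.12 TPM. Integrator had nearly the same median (12.3 TPM), and Pol II a lower one in every library. Cdk8, the kinase of the Mediator module, was at 27.8 ± 9.37 TPM, its paralog Cdk19 at 3.23 ± 0.892 and their cyclin Ccnc at 8.47 ± 2.99.

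Longer genes were higher among the subunits. With the 80 genes above 0 TPM split into 3 parts by annotated span, the 27 shortest (1443 to 9814 bp) had a median of 3.98, 2.49 and 4.62 TPM, the 26 in the middle (10766 to 26074 bp) 6.01, 4.79 and 7.80 TPM, and the 27 longest (28204 to 312858 bp) 15.5, 11.1 and 16.8 TPM. The order was the same in each library. Across 75 genes with a mean of at least 1 TPM, Spearman's rho of mean TPM with span was 0.56, and across 10235 protein-coding genes it was 0.27. With the length of the longest mature protein-coding transcript, the 2 values were 0.49 and 0.25, and with GC content -0.17 and -0.09. These are correlations across genes that share the same 3 libraries, and genes are not independent replicates. In the second quantification, rho with span was 0.61 for the 75 genes. Across the 80 genes above 0 TPM, Med12l among them, rho of mean TPM with span was lower, 0.46. It was 0.50 for these 80 genes in the second quantification. Exceptions were Med12l, the longest gene at 312858 bp and 0.387 TPM, and the short, high Taf1d, at 10778 bp. How far intron reads take part in this was not tested.

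**Figure D3:**
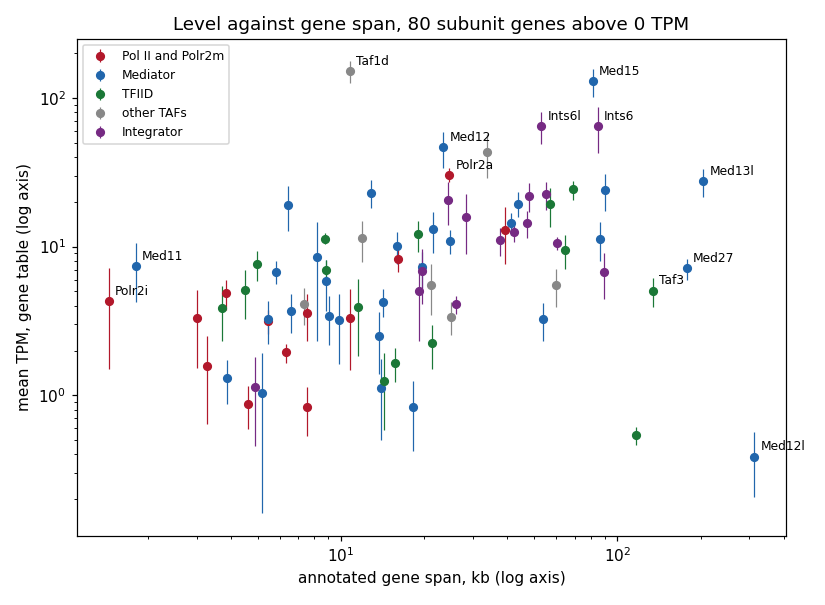
Mean TPM (log axis) of 80 subunit genes against annotated gene span in kb (log axis); error bars are SD over 3 libraries, lower bars are drawn no lower than 5% of the mean, and colours are complexes. Long genes such as Med15, Ints6 and Med13l lie high, and Med12l, the longest, lies lowest at 0.387 TPM.

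The 3 libraries differed from each other in a way that followed base composition. For this comparison expected counts were scaled to CPM, the share of a library's counts, with TMM factors, and the SD over libraries of log2(CPM + 1) was taken for each gene. Its median was 0.23 for the 75 subunit genes and 0.26 for protein-coding genes at the same minimum, and without replicate 2 it was 0.15 for the subunit genes. By complex it was highest in Pol II, 0.37, and 0.20 in Mediator. The largest value was that of Ints1, 0.91, with 37.7, 135 and 67.5 CPM in replicates 1, 2 and 3, and a GC content of 61.2% in its longest protein-coding transcript. Med21, a middle subunit, ran the other way at 16.2, 4.75 and 7.78 CPM (SD 0.80, GC 40.5%). Med16, a tail subunit, was at 5.06, 14.9 and 9.17 CPM (SD 0.70, GC 60.2%), and Taf1c at 9.70, 26.1 and 16.1 CPM (SD 0.67, GC 60.9%). Ints12, a PHD-finger subunit, was at 28.7, 11.4 and 20.2 CPM (SD 0.64, GC 40.8%). The 3 genes of high GC content were highest in replicate 2 and lowest in replicate 1, and the 2 of low GC content were the reverse.

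The steadiest genes were Med29 (4.90, 4.73 and 4.75 CPM, SD 0.02), Med20 (78.7, 75.3 and 77.2 CPM, SD 0.03) and Polr2j (1.36, 1.31 and 1.25 CPM, SD 0.03). Med20 was steady on many more counts than the other 2. Across the 75 genes, rho of the log2 difference between replicates 2 and 1 with GC content was 0.52, and of that between replicates 3 and 1 was 0.56. Across 10235 protein-coding genes the values were 0.61 and 0.55, so the pattern was shared with genes at large. Subunit genes above the median GC content of 49.6% had a median difference between replicates 2 and 1 of 0.43 (37 genes, 26 higher in replicate 2), and the rest 0.16 (38 genes, 23 higher). Of the 80 genes with TPM above 0, the lowest of the 3 libraries on the TPM scale was replicate 2 in 61 and replicate 1 in 19, and replicate 3 in none. The same held for 67.2%, 27.4% and 5.37% of protein-coding genes above 0 TPM, and replicate 2 had the smallest protein-coding share of TPM, as given above. Starting RNA also differed between the libraries, and its part in this was not tested.

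**Figure D4:**
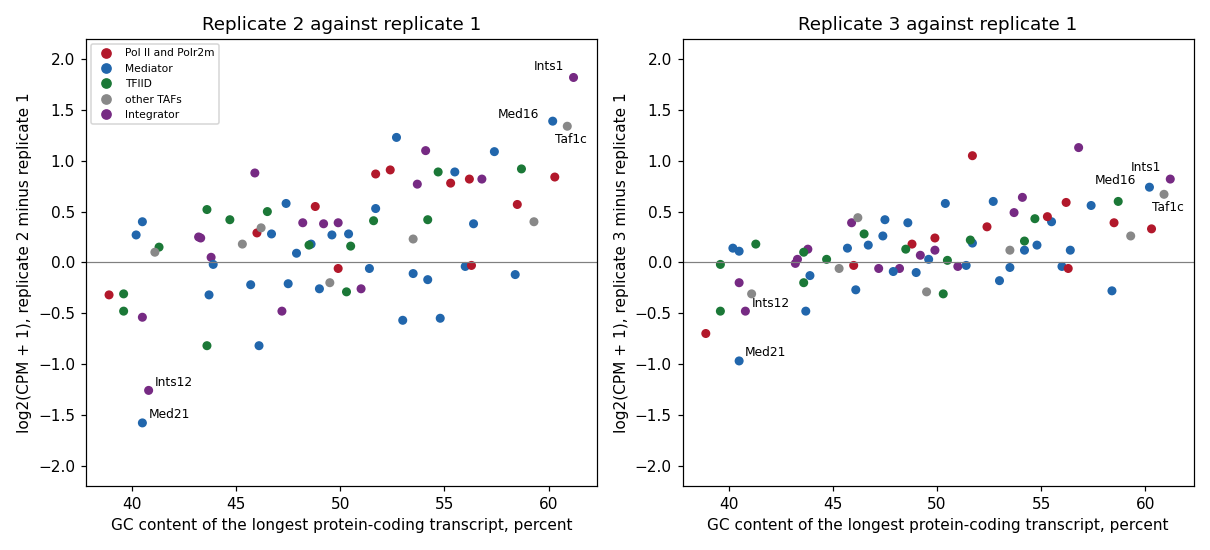
Difference in log2(CPM + 1) between replicate 2 and replicate 1 (left) and between replicate 3 and replicate 1 (right) against GC content of the longest protein-coding transcript, for 75 subunit genes with a mean of at least 1 TPM. Ints1, Med16 and Taf1c, at 60.2% to 61.2% GC, lie toward the top right, and Med21 and Ints12, at 40.5% and 40.8%, toward the bottom left.

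A second transcript quantification of the same libraries, deposited beside the first, gave higher TPM for most subunit genes. Summed per gene, it was higher than the gene table in mean for 70 of 80 genes, in all 3 libraries for 65, and by more than 2-fold for 18. Over all protein-coding genes above 0 TPM, these were 91.6%, 82.1% and 39.8%, so higher values were at least as frequent in genes at large. The median log2 ratio was 0.53 ± 0.13 for the 75 subunit genes and 0.67 ± 0.11 for protein-coding genes. It put 71 of 81 genes at 1 TPM or more in all libraries, against 53.4% of protein-coding genes. Taf12 differed most, 24.2, 7.82 and 16.9 TPM in replicates 1, 2 and 3 against 2.62, 1.39 and 2.71 in the gene table, a ratio of means of 7.27. Its leading isoform in the transcript table is a processed transcript of 241 nt, shorter than any other leading isoform named here. Next, among genes with a mean of at least 1 TPM in the gene table, were Med27 at 34.1, 16.6 and 30.6 TPM (ratio 3.80; 7.97, 5.79 and 7.62 TPM in the gene table) and Polr2f at 9.57, 8.37 and 13.3 TPM (ratio 3.14; 1.22, 4.09 and 4.64 TPM in the gene table). Med18 had 2.63, 1.55 and 4.60 TPM (ratio 2.82), and Med16 11.5, 9.85 and 14.3 TPM (ratio 2.80). Below that minimum, Med30 had a ratio of 3.72.

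The lowest ratios were those of Polr2i (0.819; 2.21, 3.23 and 5.18 TPM against 1.33, 4.73 and 6.90), Med10 (0.828; 2.79, 0.957 and 2.48 TPM against 3.25, 1.21 and 3.07) and Ints6l (0.866; 60.8, 41.8 and 66.4 TPM). The order of some genes changed with it. Ints6 was 1.89 ± 0.588 times Ints6l there, Med15 stood above Taf1d (181 ± 40.5 against 143 ± 39.3 TPM), and Med13 and Med13l were at a ratio of 1.00 ± 0.144. Polr2a remained the highest Pol II subunit, at 49.4 ± 8.46 TPM, and the median retained-intron share over the 49 genes was 49.3 ± 2.07%. Which quantification lies nearer to the RNA present was not tested.

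**Figure D5:**
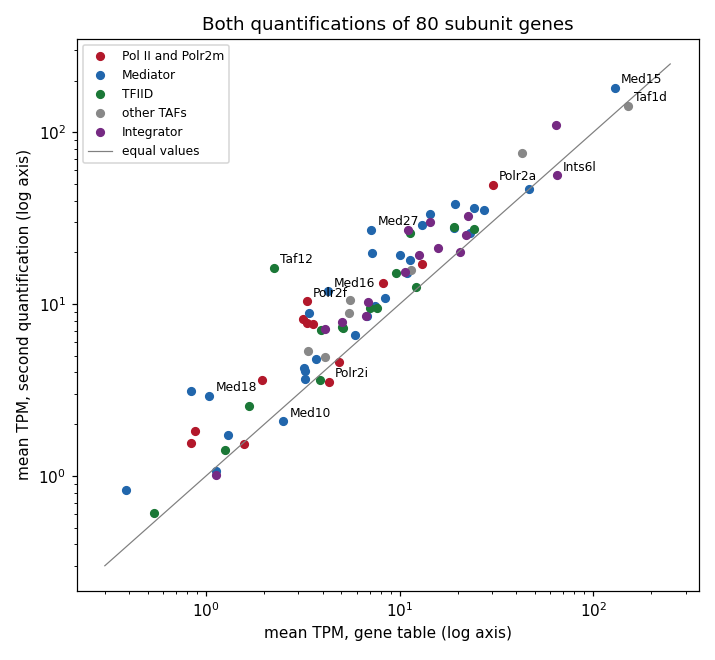
Mean TPM in the second quantification against mean TPM in the gene table for 80 subunit genes (both axes log), with the line of equal values; colours are complexes. Most genes, 70 of 80, lie above the line, Taf12 (7.27-fold) farthest, and Polr2i and Ints6l lie below it.

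Neighbouring genes overlap many of the subunit genes. Exons of 40 of the 81 genes overlap an exon of another annotated gene, and in 34 that gene lies on the opposite strand. Over all protein-coding genes, 29.6% had such an overlap and 24.1% one on the opposite strand. Where counting did not use strand, reads of a pair cannot be told apart, and its use is not given in the sources used here. The histone-fold subunit Taf10 (7.88, 5.76 and 9.20 TPM) overlaps Ilk, the higher of the pair at 49.7 TPM in mean. The shortest gene, Polr2i, overlaps Tbcb (4.74 ± 2.43 TPM), and Med21 overlaps Tm7sf3 (2.55 ± 1.06 TPM). Taf9 shares exons with Ak6 on its own strand (3.37 TPM in mean). Med15, Med13l, Ints6 and Taf1d, among the highest, also have an antisense partner in their exons, while Polr2a, Ints6l, Taf1, Taf2 and Taf15 have none.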

How the data were processed

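Total RNA of the chromatin fraction, depleted of ribosomal RNA, was sequenced from 3 libraries of 1 group. The tables were made on mm10 with GENCODE M21, per the labels and a deposited text file. Each library has a deposited gene table and a transcript table with expected counts and TPM, and the authors' transcript table adds the percent of a gene on each isoform, per the file headers. The second quantification is another deposited table of estimated counts and TPM per transcript. No aligner, counting program, version or use of strand is given in the sources used here. Fragments of 250 to 400 are named in the labels, with no unit.

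The 81 genes and the lists of complexes, companion factors and markers were chosen with earlier results of these data known. Named genes followed a rule: the 3 highest and 2 lowest of each complex, all below 1 TPM in any library, the extremes of spread, of retained-intron share and of the ratio of quantifications, 8 paralog pairs, and the ends of the companion list. Others were named for their role in a complex or an overlap, after their values were seen. Isoform shares were sums of transcript TPM by annotated class, and introns and GC content came from the transcript sequences. Expected counts, rounded to whole numbers, gave TMM factors of 1.16, 0.814 and 1.06 (edgeR 4.0.16) and DESeq2 1.42.0 size factors in R 4.3.3. The pseudocount was 1 CPM, so log2 differences of low genes are understated. Other steps used Python 3.11.15, pandas 2.3.3 and numpy 2.4.6, and were tested on simulated data. With 1 group and 3 libraries there was no test, since an exact sign-flip test cannot go below p = 0.25. SDs measure the spread between these libraries, which share a donor label, and may be in part technical. Alternatives were each library left out, the second quantification, other minimums, scalings and pseudocounts, and, chosen after seeing the data, genes free of exon overlaps. The ends of 4 of the 23 kept introns are printed, and a result on another is not reported here.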

Additional observations from a re-analysis of the deposited data

How the results depend on the processing

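Of the alternatives to 10 reported values, 46 moved the value by less than the spread between libraries or, for a count, by less than 1.5 times, and 17 moved it more. With a minimum of 5 TPM in place of 1, 39 genes passed in all 3 libraries, and with 0.5 TPM 74. The second quantification raised the median to 10.6 TPM for all 81 genes, 5.51 for Pol II, 11.9 for Mediator, 8.35 for TFIID, 20.1 for Integrator and 10.8 for the other TAF genes. TPM rescaled to protein-coding genes alone gave 29.0, 15.9, 31.2, 23.3, 56.8 and 28.9 in that order, higher by construction. It scales every gene of a library alike, so the order of the complexes within a library could not change. Pol II subunits with a mean of at least 1 TPM had a median of 4.35 TPM. As a share of expected counts, the retained-intron median was 31.2%. The median SD between libraries was 0.15 without replicate 2 and ran from 0.15 to 0.28 over the libraries left out. Leaving out each library in turn gave 69 to 72 genes at 1 TPM or more, a median of 5.69 to 7.33 TPM for the 81 genes and a retained-intron share of 46.6% to 49.8%. As a ratio of counts relative to all protein-coding genes, the second quantification was at -0.06 on the log2 scale in place of 0.53, so the subunit genes stood no higher in it than other genes. Genes with no exon overlap, an alternative chosen after seeing the data, had a median of 5.21 TPM and a retained-intron share of 48.0%. No paired analysis was possible because the libraries form 1 group. Depth limits the genes with 7 to 16 counts per library (Polr2h, Polr2d, Med30 and Med31), whose order is not resolved, and no library without lipid A was used here. Polr2i had 8, 33 and 22 counts in replicates 1, 2 and 3, and Med18 had 11, 11 and 23. Their ratios of quantifications thus also rest on few counts.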
